A study of Capra hircus with 8 samples.

Results

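Skin of milk goats was compared between months 6 and 9 and months 3 and 12, using the 4 milk goat libraries of a set of 8 RNA sequencing libraries. The 4 libraries were chosen by their labelled breed and month, and the months were paired with earlier results of these data known. The milk goat libraries of months 6 and 9 were set against those of months 3 and 12. The other 4 libraries of the set came from cashmere goat skin in the same 4 months; cashmere goats are bred for a fine undercoat. The labels name no strain, treatment or genetic change, and tissue from goats of either breed is given as skin. The month stands there under age, but the design text names 4 different months, so months of life and months of the year cannot be told apart here. Each breed and month had 1 library, and how many animals went into it is not given. The library protocol mentions embryos, although the tissue is labelled as skin. The months of a group therefore took the place of replicates, and p-values reflect nothing beyond how these libraries spread, which may be technical.

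A hair follicle passes through growth (anagen), regression (catagen) and rest (telogen), and in many mammals these phases follow the season. During growth, dividing matrix cells at the base of the follicle produce the hair shaft, made of hair keratins cross-linked to keratin-associated proteins, and the inner root sheath that surrounds it. The inner root sheath is hardened by trichohyalin, a protein whose arginines are converted by peptidylarginine deiminases and which is cross-linked by transglutaminases. Transcripts of these structural proteins are therefore abundant in skin with growing follicles and scarce in skin with resting ones.

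Total reads lay between 11333734 and 13899750 in the 4 milk goat libraries, so that 3 reads, the upper limit for a gene without reads, stood for 0.220 to 0.270 CPM (reads of a gene scaled to a common library size). CPM values were scaled by trimmed mean of M-values (TMM) factors. Basal epidermal KRT5 and KRT14, upper epidermal KRT1 and KRT10 and the collagen gene COL1A1 were abundant in all 4 libraries, as in skin, and of the milk protein genes LALBA was at 0 reads in each, CSN2 had 0 reads in months 6 and 9, against 22 and 5 reads in months 3 and 12, and CSN3 had at most 1 read. The first principal component of log2 CPM held 61.6% of the variance and placed month 9 at 63.7 and month 6 at 17.6, against month 3 at -30.4 and month 12 at -50.9. The closest pair of libraries across genes was months 3 and 6 (Pearson's r = 0.967), followed by months 6 and 9, which also rounded to 0.967, and the most distant was months 9 and 12 (r = 0.912). The library of month 12 stood apart in dermal and muscle genes. COL1A1 was at 512 CPM there, against 5777 CPM in month 6, 5046 CPM in month 9 and 9547 CPM in month 3.

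Structural genes of the hair shaft and the inner root sheath were far more abundant in months 6 and 9 than in months 3 and 12. Whether the follicles differed in phase was not tested. Of 14385 genes tested with edgeR's quasi-likelihood test, 172 were called higher in months 6 and 9 (1.2% of genes tested) and 1 was called lower (0.00695%), at an adjusted p below 0.05. The log2 fold changes of the 172 genes had a median of 3.55 (range 1.40 to 8.82), while the median over all genes tested was -0.02. At an unadjusted p below 0.05, 1409 genes passed (9.79%), of which 953 were higher (6.62%) and 456 were lower (3.17%), so the excess of higher genes was also present before adjustment. Both libraries of months 6 and 9 lay above both of months 3 and 12 for 2988 genes (20.8%) and below both for 2831 genes (19.7%). Each of the 172 called genes was among the 2988. With 2 libraries against 2, an exact permutation test of a single gene cannot give a two-sided p below 0.333, so the calls rest on edgeR's pooling of the spread over genes. The calls depended on month 12: without its library 0 genes were called (lowest adjusted p = 0.0547, 1061 genes at an unadjusted p below 0.05). No member of any gene list was called without it. Without month 3, 117 genes were called, 96 of them higher and 21 lower, and 77 of the 172 were still called. Without month 6, 767 genes were called, 589 higher and 178 lower, and these included all 172.

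**Figure D1:**
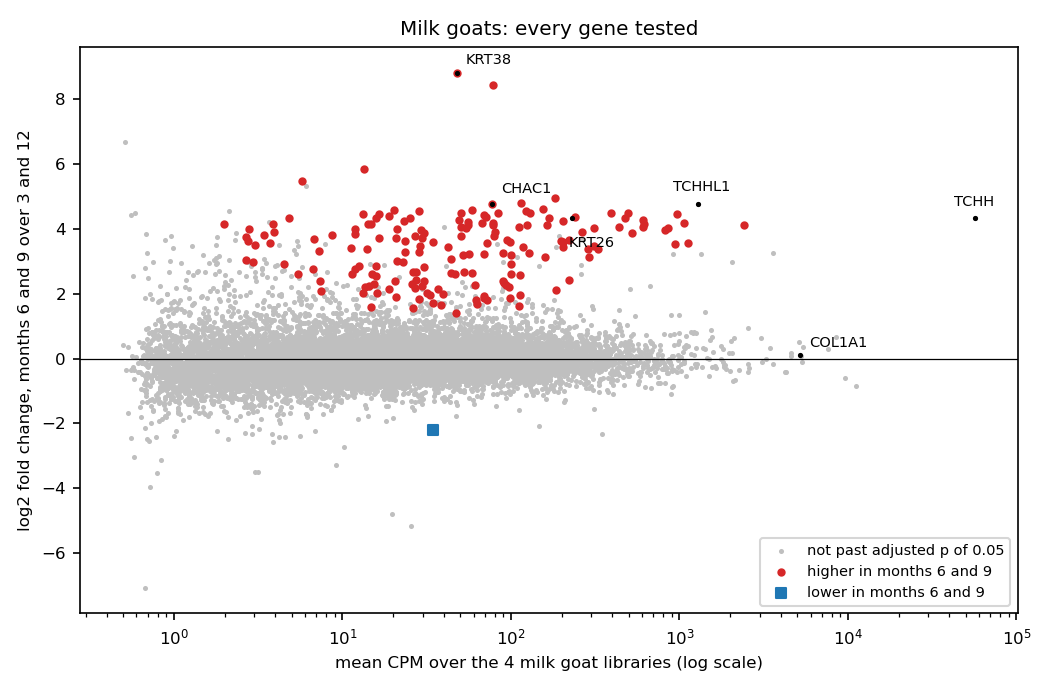
Each point is 1 of the genes tested, with its mean CPM over the 4 milk goat libraries (log axis) against its log2 fold change for months 6 and 9 over months 3 and 12. The 172 genes called higher (red) lie between 1.40 and 8.82, the 1 gene called lower (blue square) lies at -2.20, and TCHH, TCHHL1 and KRT26 lie among the highest genes without passing the adjusted threshold.

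TCHH encodes trichohyalin, the main protein of inner root sheath granules. It was at 53747 CPM in month 6 and 162397 CPM in month 9, against 8395 CPM in month 3 and 2336 CPM in month 12. It took 5.72% of all reads in month 6 and 13.0% in month 9, against 0.946% in month 3 and 0.243% in month 12. By FPKM, the authors' length-scaled value, TCHH was the highest gene of both libraries of months 6 and 9 (5980 and 13339 FPKM), whereas RPL22 was the highest in month 3 (2548 FPKM) and KRT1 in month 12 (4587 FPKM). The groups did not overlap, and the log2 fold change was 4.33 ± 1.30 (SE), but TCHH was not called (edgeR adjusted p = 0.255).

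TCHHL1, a trichohyalin-like protein, had 1065 and 3913 CPM in months 6 and 9, against 168 and 13.2 CPM in months 3 and 12. KRT26, an inner root sheath keratin, had 191 and 691 CPM in months 6 and 9, against 35.9 and 7.94 CPM in months 3 and 12. Both were without overlap between the groups, and neither was called (edgeR adjusted p = 0.133 for TCHHL1 and 0.0543 for KRT26). KRT26 was called in the authors' other count table (log2 fold change 4.35, adjusted p = 0.0366), where TCHHL1 and TCHH were not (adjusted p = 0.113 and 0.214). For these 3 genes the libraries within each group differed widely: month 9 stood at more CPM than month 6, and month 3 at more than month 12. CHAC1, an enzyme that cleaves glutathione, differed less within the groups. It had 84.4 and 215 CPM in months 6 and 9, against 6.18 and 4.68 CPM in months 3 and 12, and was called higher with a log2 fold change of 4.78 ± 0.50 (SE, edgeR adjusted p = 0.0100).

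**Figure D2:**
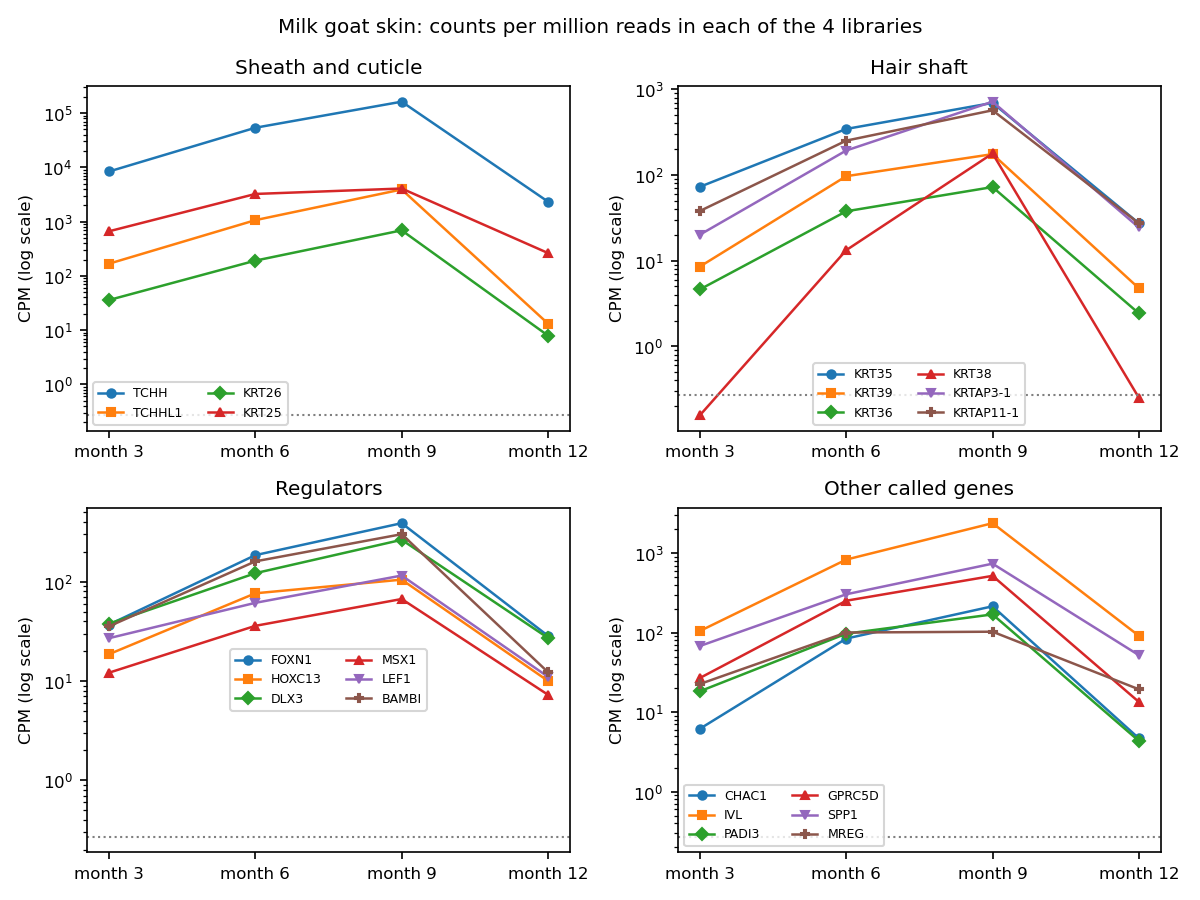
CPM (log axes) in the milk goat libraries of months 3, 6, 9 and 12 for inner root sheath genes, hair shaft genes, follicle regulators and other called genes; each point is 1 library and the dotted line is the level of 3 reads. All lines are higher at months 6 and 9 than at months 3 and 12, and TCHH spans 2336 to 162397 CPM.

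Of 18 listed genes of the inner root sheath and the hair cuticle, 13 were found under their symbols and tested. Of these 13, 6 were called higher, where 1.2% of all genes were: PADI1, S100A3, DSG4, PADI3, KRT74 and TGM3. All 13 lay above without overlap between the groups, where 20.8% of all genes did, and the median log2 fold change was 3.55. PADI1, a peptidylarginine deiminase, had 35.6 and 79.1 CPM in months 6 and 9, against 5.40 and 2.34 CPM in months 3 and 12 (log2 fold change 3.88 ± 0.52, edgeR adjusted p = 0.0125). PADI3, a deiminase that acts on trichohyalin, had 97.3 and 170.0 CPM, against 18.3 and 4.35 CPM in months 3 and 12 (log2 fold change 3.55 ± 0.62). S100A3 encodes a calcium-binding protein of the hair cuticle. It was nearly equal in months 6 and 9, at 92.7 and 96.5 CPM, against 10.3 CPM in month 3 and 3.34 CPM in month 12. DSG4, the desmosomal cadherin of the hair follicle, had 129 and 224 CPM in months 6 and 9, against 21.4 and 6.35 CPM in months 3 and 12. TGM3, a transglutaminase that cross-links trichohyalin, had 237 and 365 CPM, against 62.0 and 76.4 CPM in months 3 and 12, and thus showed the smallest fold of the 6 (log2 fold change 2.12 ± 0.35).

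The inner root sheath keratins KRT25 and KRT27 were abundant and were not called. KRT25 had 3236 and 4077 CPM in months 6 and 9, against 664 and 264 CPM in months 3 and 12 (adjusted p = 0.0682). KRT27 had 2012 and 2852 CPM in months 6 and 9, against 387 and 138 CPM in months 3 and 12 (adjusted p = 0.0543). Summed over the list, inner root sheath genes took 6.52% and 14.0% of reads in months 6 and 9, against 1.13% and 0.320% in months 3 and 12, and TCHH made up most of each share. In bulk skin, fewer cells of a type and less RNA per cell cannot be told apart.

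Of 17 listed hair shaft keratins, 8 were found under their symbols and tested. Of these 8, 6 were called higher, where 1.2% of all genes were. All 8 lay above without overlap, where 20.8% of all genes did (median log2 fold change 3.65). KRT35, a keratin of the early cortex and cuticle, had 345 and 696 CPM in months 6 and 9, against 72.9 and 27.3 CPM in months 3 and 12. KRT39 had 97.0 and 175 CPM in months 6 and 9, against 8.53 and 4.76 CPM in months 3 and 12, with a log2 fold change of 4.35 ± 0.44 (edgeR adjusted p = 0.0100). KRT36 had 37.7 and 72.4 CPM, against 4.62 and 2.42 CPM in months 3 and 12. The libraries within each group thus differed by less than the groups for these 3 keratins. KRT38 was near 0 in months 3 and 12. It had 181 and 1980 reads in months 6 and 9, against 2 and 3 reads there. The ratio of its scaled reads was 432 (95% exact interval 185 to 1332, counting error only), and its fitted log2 fold change of 8.82 depends on the prior count. Months 6 and 9 differed in KRT38 as well, with 13.3 and 178 CPM. KRT40 and KRT84, a keratin known from the hair cuticle, completed the called keratins with log2 fold changes of 3.60 and 3.22. KRT82, also a cuticle keratin, and KRT32 had log2 fold changes of 3.70 and 3.44 and missed the threshold (adjusted p = 0.0578 and 0.0983).

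Keratin-associated proteins form the matrix in which the hair keratin filaments are embedded. Of 16 listed genes, only 4 were found under their symbols in the table. Of these 4, 3 were called higher, where 1.2% of all genes were. The median log2 fold change was 4.00. KRTAP3-1 had 193 and 719 CPM in months 6 and 9, against 20.1 and 24.4 CPM in months 3 and 12 (log2 fold change 4.36 ± 0.63, edgeR adjusted p = 0.0179). KRTAP11-1 had 252 and 570.3 CPM in months 6 and 9, against 38.0 and 27.3 CPM in months 3 and 12. KRTAP15-1 had 19.7 and 57.8 CPM, against 2.11 and 1.09 CPM in months 3 and 12. All 3 were higher in month 9 than in month 6, while months 3 and 12 lay closer together. KAP8 was not called (adjusted p = 0.180). It was at 18.3 CPM in month 6 and 126 CPM in month 9, against 7.20 CPM in month 3 and 12.8 CPM in month 12, so that month 6 was close to month 12 and far from month 9.

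Of the 172 genes called higher, 73 carry only a LOC identifier, and their place in the gene order of RefSeq was examined after the calls were seen. By the order in assembly ARS1.2, 49 of the 73 lie within 25 genes of a gene named as a keratin or keratin-associated protein. Of 14384 tested genes with a place in that order, 192 lay that near to such a gene, named ones included. Of these 192, 60 were called higher (31.2%), where 1.2% of all genes were. Between KRT39 and KRT36, 37 of 44 tested genes were called higher, 31 of them LOC genes. LOC108638300, which lies in that stretch, had 289 and 1597 CPM in months 6 and 9, against 40.8 and 42.3 CPM in months 3 and 12. Between KRTAP11-1 and KRTAP15-1, 4 of 8 tested genes were called, and between KRT74 and KRT84 6 of 10 were. Members of such clusters can be near-identical in sequence, so the authors' counting may split reads among them, and the value of any single keratin or keratin-associated protein gene is uncertain to that extent.

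The authors' other count table annotates more of these genes by product name. In it, 137 of 15407 genes tested were called (0.889%), all of them higher in months 6 and 9. Of 26 genes tested there with a keratin-associated protein product name, 24 were called, with a median log2 fold change of 4.31 (2.54 to 5.36). They took 0.477% and 0.872% of reads in months 6 and 9, against 0.0436% and 0.0412% in months 3 and 12. Hair shaft keratins by product name were called in 13 of 17 cases, with a median of 3.66. Their share of reads was 1.62% and 2.27% in months 6 and 9, against 0.187% and 0.0875% in months 3 and 12. Of 3 trichohyalins by product name 0 were called (median 4.36), and their share was 3.22% and 7.20% in months 6 and 9, against 0.517% and 0.127% in months 3 and 12. Of 3 inner root sheath keratins 1 was called (median 3.26), and their share was 0.902% and 0.930% in months 6 and 9, against 0.171% and 0.0558% in months 3 and 12. These classes were formed after the values were seen and are a description. Of the 99 called genes with a symbol in the main table, 74 were also tested in the other table under that symbol, 72 of them in the same direction, and 48 were called there.

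Tested regulators of the hair matrix and cortex numbered 28, most of them transcription factors. Of these, 6 were called higher and 0 lower by edgeR, where 1.2% of all genes were called higher. At an unadjusted p below 0.05 were 17 of the 28, against 9.79% of all genes. The median log2 fold change was 1.22. FOXN1, the factor lacking in nude mice, had 185 and 389 CPM in months 6 and 9, against 37.0 and 28.5 CPM in months 3 and 12 (log2 fold change 3.13 ± 0.43, adjusted p = 0.0143). HOXC13, a regulator of hair keratin genes, had 76.5 and 105 CPM in months 6 and 9, against 18.6 and 10.0 CPM in months 3 and 12 (log2 fold change 2.66 ± 0.36). DLX3, a homeobox factor of the matrix, had 122 and 264 CPM, against 37.8 and 27.2 CPM in months 3 and 12. For all 3 factors both libraries of months 3 and 12 lay below both of months 6 and 9. MSX1 and MSX2, homeobox factors of the matrix, were called with log2 fold changes of 2.40 and 2.33. The symbol MSX2 is listed under 2 identifiers, 1 of which had 0 reads in all 4 libraries. HEPHL1, a copper-dependent ferroxidase related to hair structure in humans, was called with a log2 fold change of 3.58.

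Other members of the same list did not pass the test. LEF1, which with beta-catenin activates Wnt target genes in the precortex, had 61.3 and 115 CPM in months 6 and 9, against 27.0 and 11.03 CPM in months 3 and 12 (edgeR adjusted p = 0.0754). SHH, the signal of the matrix that drives follicle growth, had 97 and 201 reads in months 6 and 9, against 83 and 7 reads in months 3 and 12 (adjusted p = 0.540), so months 3 and 6 were nearly equal. FOXI3, GATA3 and OVOL2 had negative log2 fold changes of -1.05, -0.48 and -0.68. FOXI3, whose mutation gives hairless dogs, was at 4.78 CPM in month 9 and at 18.5, 26.1 and 22.5 CPM in months 6, 3 and 12.

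Secreted signals and receptors known from the hair cycle showed no common direction. Of 41 tested, 2 were called higher and 0 lower, where 1.2% of all genes were called higher, and the median was 0.02. In edgeR 9 of the 41 were at an unadjusted p below 0.05, where 9.79% of all genes were. Without overlap, 12 lay above and 9 below, where 20.8% and 19.7% of all genes did. BAMBI, a decoy receptor that dampens bone morphogenetic protein and activin signalling, had 160.3 and 301 CPM in months 6 and 9, against 35.5 and 12.3 CPM in months 3 and 12 (log2 fold change 3.27 ± 0.55, edgeR adjusted p = 0.0313). FGF22, a fibroblast growth factor expressed in the inner root sheath in mice, had 17.7 and 57.4 CPM in months 6 and 9, against 4.31 and 5.01 CPM in months 3 and 12 (log2 fold change 3.01 ± 0.54). FGF5, which ends hair growth in several mammals and limits hair length, was too low to be tested, at 8 and 34 reads in months 6 and 9, against 5 and 0 reads in months 3 and 12. The prolactin receptor PRLR, known to act on seasonal hair growth in goats and sheep, had 156 and 123 CPM, against 248 and 209 CPM in months 3 and 12 (adjusted p = 0.508).

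In the main table no Wnt pathway gene was called, either of 18 inhibitors (3 at an unadjusted p below 0.05) or of 18 ligands and R-spondins (2). Over all genes, 9.79% were at an unadjusted p below 0.05. SFRP1, a secreted Wnt inhibitor, had 497 and 787 CPM in months 6 and 9, against 231 and 227 CPM in months 3 and 12 (log2 fold change 1.49, edgeR adjusted p = 0.165). In the other count table SFRP1 was called, with 70.4 and 117 CPM in months 6 and 9, against 28.1 and 18.8 CPM in months 3 and 12 (adjusted p = 0.0330). NOTUM, an enzyme that inactivates Wnt proteins, had 18 and 45 reads in months 6 and 9, against 2 and 5 reads in months 3 and 12 (adjusted p = 0.170). WNT11 had 16.6 and 36.7 CPM, against 7.67 and 3.93 CPM in months 3 and 12 (adjusted p = 0.0827). DESeq2 called 3 of the inhibitors and 1 of the ligands. It called more of all genes than edgeR did, and its count over all genes, given in the last section, applies to each list.

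Cell division genes had positive log2 fold changes throughout, without any call. All 35 members had positive log2 fold changes and 30 did not overlap between the groups, where 20.8% of all genes lay above in this way. The median was 1.03, and the highest value was 2.15 for CCNB1. In edgeR 23 of the 35 were at an unadjusted p below 0.05, where 9.79% of all genes were. MKI67, which marks dividing cells, had 146 and 339 CPM in months 6 and 9, against 115 and 52.6 CPM in months 3 and 12. RRM2, a subunit of the enzyme that makes deoxyribonucleotides, had 51.3 and 73.8 CPM, against 31.9 and 16.2 CPM in months 3 and 12 (edgeR adjusted p = 0.178). All 35 genes were higher in month 9 than in month 6, and month 6 was close to month 3 for several of them, as in MKI67. DESeq2, which called more of all genes than edgeR did, called 3 of the 35.

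Gene lists of other follicle compartments had 0 calls by edgeR, although single members were higher in months 6 and 9. Of 20 outer root sheath and follicle stem cell genes, 0 were called (edgeR, 4 at an unadjusted p below 0.05, where 9.79% of all genes were; DESeq2 called 1). The median log2 fold change was 0.04. Without overlap, 6 members lay above and 5 below, where 20.8% and 19.7% of all genes did. KRT6A, a keratin of the companion layer and outer root sheath, had 635 and 1023 CPM in months 6 and 9, against 146 and 227 CPM in months 3 and 12, and missed the threshold (adjusted p = 0.0656). LGR5, a stem cell receptor, had 96.4 and 123 CPM in months 6 and 9, against 78.8 and 43.0 CPM in months 3 and 12. LGR6 had 15 and 8 reads, against 32 and 48 reads in months 3 and 12. Among 25 dermal papilla genes 0 were called (2 at an unadjusted p below 0.05; DESeq2 called 1), and the median was 0.21.

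Epidermal differentiation genes stayed near the level of all genes, with a median log2 fold change of 0.01 over 27 tested. IVL was the only member called (DESeq2 called 2), where 1.2% of all genes were called higher. IVL encodes involucrin, a precursor of the cornified envelope, and had 832 and 2390 CPM in months 6 and 9, against 105 and 91.4 CPM in months 3 and 12 (log2 fold change 4.03 ± 0.61, edgeR adjusted p = 0.0214). KRT1, a keratin of the upper epidermis, had 8409 and 7612 CPM in months 6 and 9, against 8669 and 20027 CPM in months 3 and 12. Its partner KRT10 had 7634 CPM in both months 6 and 9, against 8364 and 14651 CPM in months 3 and 12. In both cases month 3 was close to months 6 and 9, and month 12 alone was high. LOR, which encodes loricrin, had 608 and 532 CPM in months 6 and 9, against 777 and 1639 CPM in months 3 and 12.

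Lipid genes of the sebaceous gland had a median of -0.46 in log2 fold change over 25 tested, with 19 negative values. None was called by edgeR, and DESeq2 called 2. In edgeR 4 were at an unadjusted p below 0.05, where 9.79% of all genes were. Of these 4, FADS1, FABP7 and FADS2 were higher and PPARG was lower. ELOVL3, a fatty acid elongase of sebocytes, had 590.3 and 621 CPM in months 6 and 9, against 597 and 1455 CPM in months 3 and 12, so that month 12 stood alone here also. FADS1, a fatty acid desaturase, had its higher values in months 6 and 9, with 57.6 and 138 CPM in months 6 and 9, against 25.1 and 15.9 CPM in months 3 and 12 (adjusted p = 0.0578). FABP7, a fatty acid binding protein, had 7.76 CPM in month 6 and 54.2 CPM in month 9, against 4.15 CPM in month 3 and 4.18 CPM in month 12. Cholesterol synthesis genes had a median of 0.17 and 0 of 21 calls (1 at an unadjusted p below 0.05; DESeq2 called 0).

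**Figure D3:**
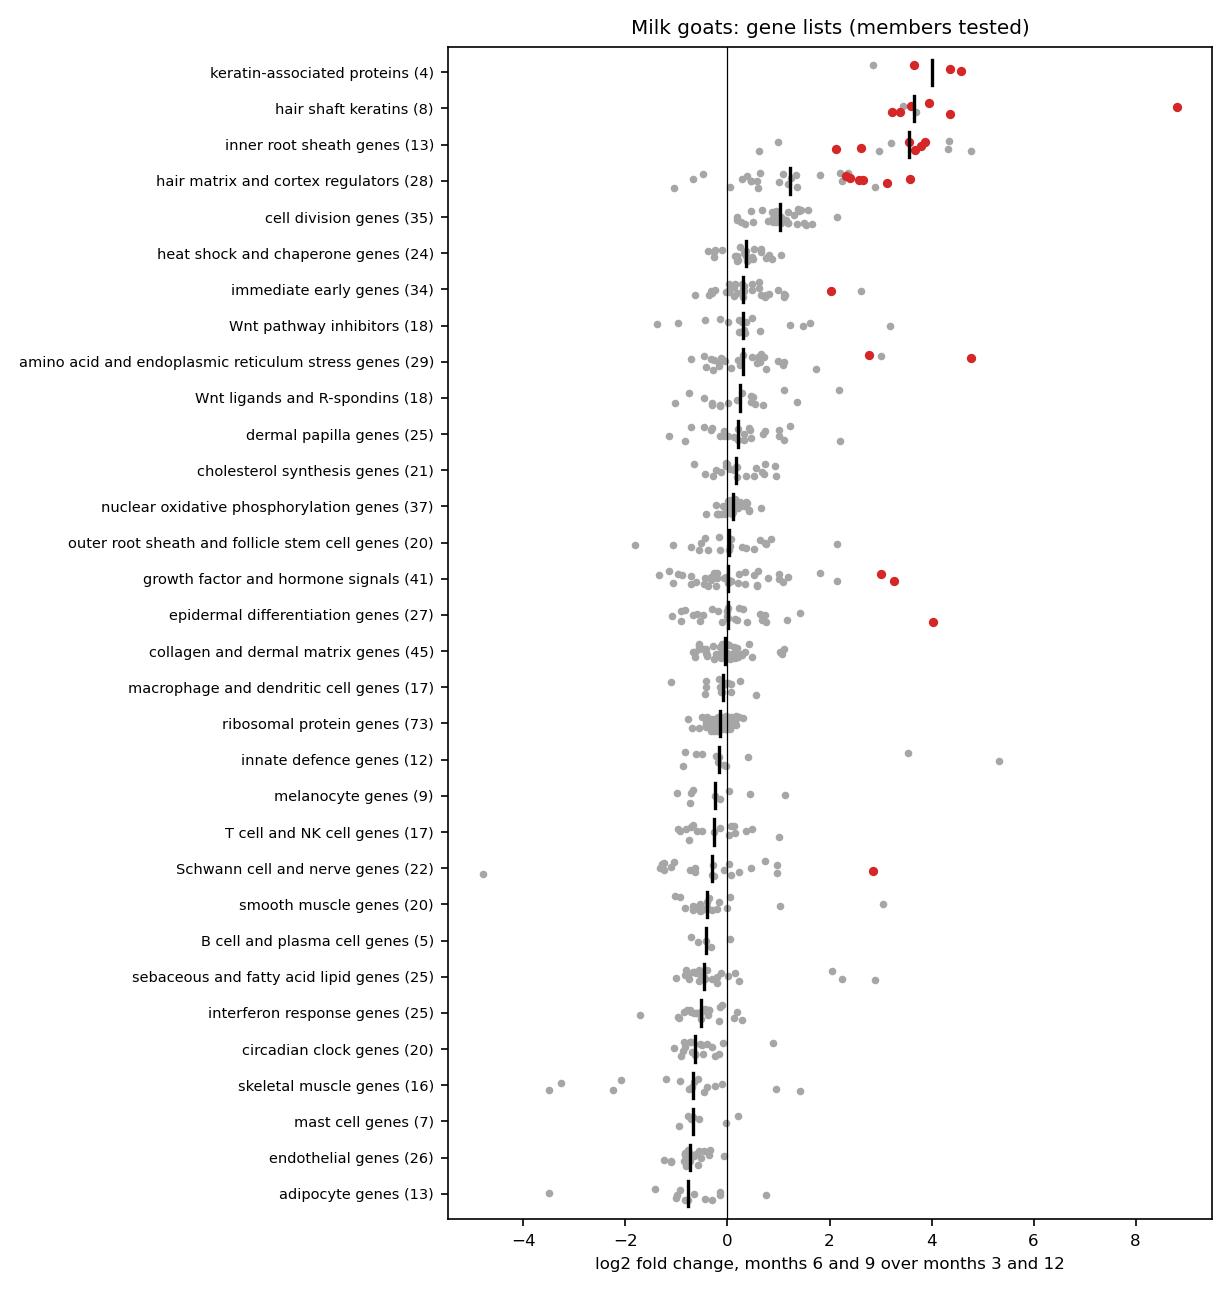
Log2 fold change for months 6 and 9 over months 3 and 12 of every tested member of each gene list with at least 4 members tested (points; red where called, black bar at the list median). The medians are highest for keratin-associated proteins (4.00), keratins of the shaft (3.65) and the inner root sheath (3.55), followed by regulators of the matrix (1.22), cell division (1.03) and heat shock genes (0.37).

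Called genes outside the hair structural lists covered several functions, and apart from those with the highest folds they were picked out after their values were seen. PLA2G2E, a secreted phospholipase A2 found in mouse hair follicles, had 127 and 147 reads in months 6 and 9, against 5 and 1 reads in months 3 and 12 (log2 fold change 5.49 ± 0.63, edgeR adjusted p = 0.0101). GPRC5D, an orphan receptor of hard-keratinizing tissue, had 253 and 519.5 CPM in months 6 and 9, against 26.9 and 13.5 CPM in months 3 and 12. LY6G6D, a surface protein of the LY6 family, had 352 and 827 CPM, against 48.3 and 23.6 CPM in months 3 and 12. In all 3 genes months 3 and 12 stood far below months 6 and 9. FAM26D, of the calcium homeostasis modulator family, had 49.7 and 60.0 CPM in months 6 and 9, against 3.99 and 0.585 CPM in months 3 and 12. NPTX2, a secreted pentraxin, had 523 and 455 reads, against 50 and 12 reads in months 3 and 12.

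Amino acid and cysteine metabolism was represented by CHAC1 and CTH, the 2 members called among 29 genes of amino acid and endoplasmic reticulum stress (median log2 fold change 0.29). Over all genes, 1.2% were called higher. Of the 29, 9 were at an unadjusted p below 0.05 in edgeR, where 9.79% of all genes were. Without overlap, 14 lay above and 3 below, where 20.8% and 19.7% of all genes did. CTH, which makes cysteine from cystathionine, had 10.3 and 13.2 CPM in months 6 and 9, against 1.57 and 1.84 CPM in months 3 and 12 (log2 fold change 2.77 ± 0.40, edgeR adjusted p = 0.0182). The stress factors ATF4 and DDIT3 had log2 fold changes of 0.49 and -0.42 and were not called. The cystine transporter SLC7A11 was low, at 11 and 29 reads in months 6 and 9, against 4 and 1 reads in months 3 and 12. Also called were the amino acid transporter SLC1A4 (log2 fold change 2.13), the thioredoxin reductase TXNRD1 (1.88) and ASS1 (2.40), which makes argininosuccinate in arginine synthesis.

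Further called genes included the deiminase PADI4 and the transglutaminases TGM6 and TGM7. The calpain CAPN12, a protease of the mouse hair follicle, and the zinc-binding metallothionein MT4 had log2 fold changes of 3.28 and 3.47. Called regulators outside the matrix list were ELF5, SP6 and BHLHE22, transcription factors with log2 fold changes of 2.25, 2.20 and 2.64. The receptor kinase RET and the growth factor NRG2 had log2 fold changes of 2.67 and 1.95. SPP1, the secreted phosphoprotein osteopontin, had 305 and 739 CPM in months 6 and 9, against 68.0 and 52.1 CPM in months 3 and 12. MREG, melanoregulin, was level within each group, at 100.5 and 103 CPM in months 6 and 9, against 22.6 and 19.4 CPM in months 3 and 12. LOC100861279, for which RefSeq gives the synonym A-FABP, the adipocyte fatty acid binding protein, had 372 and 374 CPM in months 6 and 9, against 42.4 and 26.4 CPM in months 3 and 12 (log2 fold change 3.44 ± 0.38). The other count table lists FABP4 with a log2 fold change of 3.47.

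Genes lower in months 6 and 9 were few in the test. The 1 gene called was LOC108635030, at 10.2 and 14.6 CPM in months 6 and 9, against 38.4 and 75.04 CPM in months 3 and 12 (log2 fold change -2.20 ± 0.38, edgeR adjusted p = 0.0358). It was not called in the fit of all 8 libraries. The 12 named genes with the smallest p among those lower in both libraries all missed the threshold (adjusted p from 0.0857 to 0.165). MECOM, a zinc finger transcription factor, had 22.3 and 17.7 CPM in months 6 and 9, against 42.3 and 57.2 CPM in months 3 and 12. RAMP3, a partner of calcitonin-family receptors, had 28.0 and 26.2 CPM, against 56.1 and 64.0 CPM in months 3 and 12. PDK4, a kinase that restrains glucose oxidation, had 92.6 and 98.4 CPM in months 6 and 9, against 182 and 269.9 CPM in months 3 and 12. ACADL, FOXA1, NBEAL1, AOC1, ADIRF, NR2F1, RNF125 and NR2F2 had log2 fold changes between -1.59 and -1.09.

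Circadian clock genes were centred on a log2 fold change of -0.63, with 19 of 20 negative and 14 below in both libraries without overlap, where 19.7% of all genes lay below in this way. None was called by edgeR, and DESeq2 called 0. In edgeR 7 were at an unadjusted p below 0.05, where 9.79% of all genes were, and 1 of these 7, NFIL3, was higher. NR1D1, a nuclear receptor that represses clock genes, had 28.2 and 26.0 CPM in months 6 and 9, against 46.0 and 55.7 CPM in months 3 and 12 (adjusted p = 0.219). NFIL3, which opposes the clock factor DBP at shared sites, was the 1 member with a positive value, 0.89.

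Among general processes, immediate early genes had a median of 0.31 in log2 fold change over 34 tested. Without overlap, 14 lay above and 4 below, where 20.8% and 19.7% of all genes did. In edgeR 8 were at an unadjusted p below 0.05 (9.79% of all genes were), and 1 was called (1.2% of all genes were called higher). This was DUSP5, a phosphatase of nuclear ERK, with 41.4 and 60.9 CPM in months 6 and 9, against 9.47 and 15.5 CPM in months 3 and 12 (edgeR adjusted p = 0.0328). Heat shock and chaperone genes had a median of 0.37, with 19 of 24 positive and 0 called (edgeR, 2 at an unadjusted p below 0.05; DESeq2 called 0). HSPA8 had 450.2 and 858 CPM in months 6 and 9, against 389 and 246 CPM in months 3 and 12. The 37 nuclear oxidative phosphorylation genes and the 73 ribosomal protein genes had medians of 0.11 and -0.15, and 0 of either were called by edgeR or DESeq2 or were at an unadjusted p below 0.05. Scaling by library totals in place of TMM factors shifted the median of all genes to -0.25, and under it the medians of oxidative phosphorylation, cholesterol, outer root sheath, epidermal and hair cycle signal genes were below 0.

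Genes of other cell types in skin mostly had negative log2 fold changes, and their part in the results above was not tested. Of all genes tested, 47.5% had a log2 fold change above 0, 19.7% lay below without overlap, and 9.79% were at an unadjusted p below 0.05. All 26 endothelial genes had negative log2 fold changes, 19 without overlap, with a median of -0.74, and 0 were called (edgeR, 6 at an unadjusted p below 0.05; DESeq2 called 0). Their summed level was 985 and 593 CPM in months 6 and 9, against 1489.7 and 1121 CPM in months 3 and 12. FLT1, a receptor of vascular endothelial growth factor, had 28.0 and 20.3 CPM in months 6 and 9, against 43.0 and 41.6 CPM in months 3 and 12 (adjusted p = 0.332). All 13 adipocyte genes but RBP4 were negative (median -0.77), with summed levels of 263 and 278 CPM in months 6 and 9, against 346 and 398 CPM in months 3 and 12. The gene with the synonym A-FABP, also an adipocyte gene, is not in this list and was called in the opposite direction, as given above. Smooth muscle genes were negative in 17 of 20 cases (median -0.40, 6325 and 10442 CPM in sum, against 9309.5 and 11943 CPM in months 3 and 12). Of the adipocyte and smooth muscle genes 0 were called by edgeR, while DESeq2 called 2 adipocyte genes lower and 1 smooth muscle gene higher. In edgeR 3 of each were at an unadjusted p below 0.05. Of these 3 smooth muscle genes, CASQ2 and TPM1 were higher and PLN was lower.

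Skeletal muscle genes were highest in month 12. Their sum was 89.6 and 120.3 CPM in months 6 and 9, against 109 CPM in month 3 and 223 CPM in month 12. Of 16 tested members, 14 were negative and 0 were called by edgeR, while DESeq2 called 1 lower. In edgeR 6 were at an unadjusted p below 0.05, where 9.79% of all genes were, and among these ACTN3 was higher. ACTA1, skeletal muscle actin, had 19 and 23 reads in months 6 and 9, against 6 reads in month 3 and 394 in month 12. Of 10 muscle genes too low to be tested, MYL1 had 66 reads and TNNC2 71 reads in month 12, with at most 5 reads of either in any other month. NEFH, a neurofilament subunit, was at 74.96 CPM in month 12 and at most at 2.79 CPM elsewhere.

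Nerve and Schwann cell genes had 1 call among 22, where 1.2% of all genes were called higher. At an unadjusted p below 0.05 were 8 of the 22 (edgeR), where 9.79% of all genes were. Without overlap, 5 lay above and 9 below, where 20.8% and 19.7% of all genes did. PRPH, peripherin, had 27.8 and 27.5 CPM in months 6 and 9, against 4.31 and 3.34 CPM in months 3 and 12 (log2 fold change 2.85 ± 0.32, edgeR adjusted p = 0.0101). The list as a whole had a median of -0.30 with 14 of 22 members negative, so PRPH stood apart from most of it. Interferon response genes had a median of -0.52 with 22 of 25 negative and 0 called (edgeR, 2 at an unadjusted p below 0.05; DESeq2 called 0). Macrophage and dendritic cell genes had a median of -0.10 and T cell and NK cell genes of -0.26, with 0 called among 17 in each list (edgeR, 0 and 1 at an unadjusted p below 0.05; DESeq2 called 0). All 17 T cell genes and all macrophage genes with reads in both libraries were lower in month 9 than in month 6, and the sums were 715.5 and 307 CPM for macrophage genes in months 6 and 9, against 642 and 461 CPM in months 3 and 12. The B cell, mast cell and melanocyte lists had 5, 7 and 9 members tested and 0 calls by edgeR or DESeq2, also at an unadjusted p below 0.05. The pigment genes TYR, TYRP1, DCT and MLANA had at most 15 reads in any library.

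Innate defence genes had 0 of 12 calls by edgeR, and DESeq2 called 1. In edgeR 3 were at an unadjusted p below 0.05, where 9.79% of all genes were. Their 2 members with the smallest p were among the high values of the whole comparison. LCN2, a siderophore-binding protein, had 19 and 247 reads in months 6 and 9, against 4 and 3 reads in months 3 and 12 (edgeR adjusted p = 0.115). LYG2, a goose-type lysozyme, had 130 and 176 CPM in months 6 and 9, against 22.9 and 3.43 CPM in months 3 and 12 (adjusted p = 0.0656). Of the mammary and blood genes, only PRLR and SLC4A1, the anion exchanger of red cells, were high enough to be tested. SLC4A1 had 25 and 70 reads in months 6 and 9, against 2 reads in each of months 3 and 12 (adjusted p = 0.0519), a ratio of scaled reads of 23.7 (95% exact interval 8.98 to 88.9, counting error only).

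The dermal matrix did not separate the groups. The 45 collagen and dermal matrix genes had a median of -0.05 in log2 fold change. Without overlap, 4 members lay above and 7 below, where 20.8% and 19.7% of all genes did. Of the 45, 0 were called (edgeR, 3 at an unadjusted p below 0.05; DESeq2 called 0), where 1.2% of all genes were called higher. Their summed level was 20013 and 15749 CPM in months 6 and 9, against 28587 CPM in month 3 and 8647 CPM in month 12. Month 3 thus had the highest sum and month 12 the lowest, and 40 of the 45 genes were higher in month 3 than in month 12. COL3A1, the chain of type III collagen, had 2022 and 1434 CPM in months 6 and 9, against 3796 CPM in month 3 and 184 CPM in month 12.

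**Figure D4:**
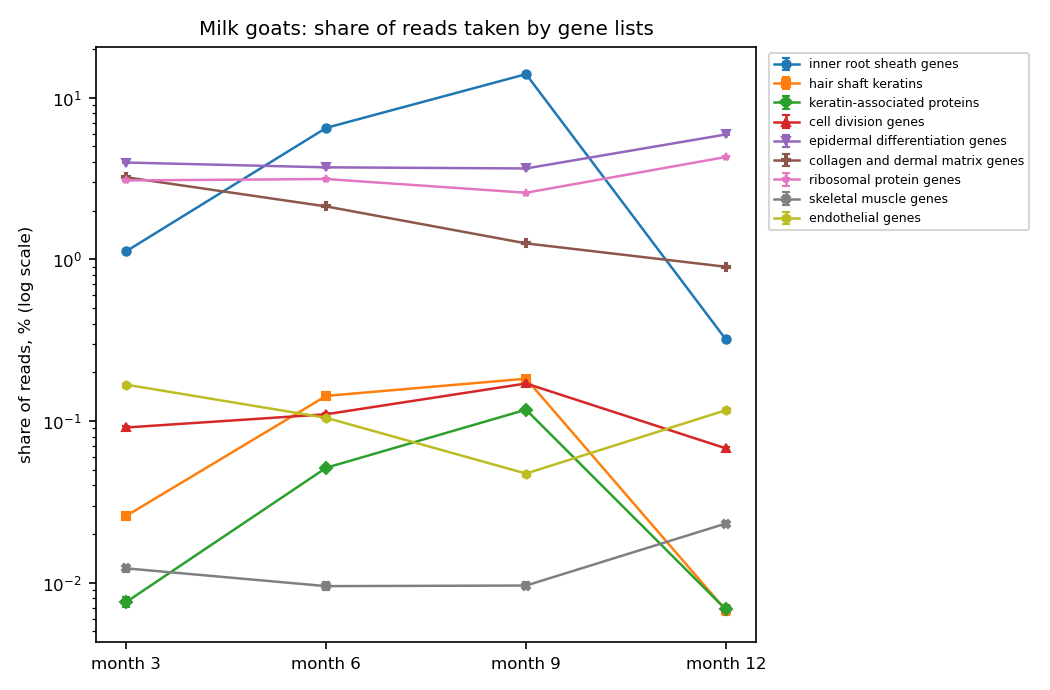
Share of all reads (%, log axis) taken by 9 gene lists in the milk goat libraries of months 3, 6, 9 and 12, with exact 95% binomial intervals that cover counting error only and are mostly smaller than the symbols. Inner root sheath genes span 0.320% to 14.0% with the highest share in month 9, dermal matrix genes have their lowest share, 0.901%, in month 12, and endothelial genes have theirs, 0.0473%, in month 9.

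Month 9 was the highest library for most of the called genes. Month 9 was above month 6 in 165 of the 172 genes, against 55.5% of all genes, and month 3 was above month 12 in 127, against 49.1% of all genes. The order month 9, month 6, month 3 and month 12, from high to low, held for 121 of the 172. The median log2 ratio was 0.83 for month 9 over month 6 and 0.49 for month 3 over month 12, against 0.06 and -0.01 over all genes. Hair shaft keratins and inner root sheath genes had median log2 ratios of 0.71 and 0.79 for month 9 over month 6. For month 12 over month 3 they were at -1.17 and -1.49, whereas keratin-associated proteins were at -0.10. With 1 library per month, these ratios have no test.

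Of 13098 genes with at least 100 reads in the milk goat libraries, 33.8% had their highest CPM in month 9, 29.9% in month 12, 25.5% in month 3 and 10.8% in month 6. The lowest CPM was in month 9 for 30.7%, in month 12 for 29.5%, in month 3 for 24.3% and in month 6 for 15.5%. A level at least 2-fold above every other month was reached by 53 genes in month 3, 4 in month 6, 260 in month 9 and 152 in month 12. A level at least 2-fold below every other month was reached by 53 genes in month 3, 13 in month 6, 327 in month 9 and 280 in month 12. The genes most specific to month 3 included ADIPOQ, the adipocyte hormone adiponectin, at 10.2 CPM there and at most 1.42 CPM in another month, and the secreted Wnt inhibitor SFRP4, at 17.8 CPM in month 3 and at most 6.44 CPM elsewhere. Those of month 6 included the immediate early gene FOSB, at 18.0 CPM against at most 6.42 CPM in another month. Those of month 9 included LCN2, KRT38, FABP7 and KAP8, described above, and ETNPPL, an enzyme of phosphoethanolamine breakdown, at 11.7 CPM against at most 2.34 CPM. Those of month 12 were led by XIRP2, a muscle gene, with 113 reads there and at most 2 elsewhere.

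Month 9 differed from month 6 in genes outside the hair lists as well. NNAT, neuronatin, was at 4.24 CPM in month 9 and at 43.2 CPM in month 6, 39.0 CPM in month 3 and 40.5 CPM in month 12. It was therefore low in month 9 alone. COL6A5, a collagen VI chain, was at 6.40 CPM in month 9 and 41.4 CPM in month 6. MUCL1, a small mucin, had 165 reads in month 9 and 3 reads in month 6, with 11.7 and 45.4 CPM in months 3 and 12.

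In cashmere goats these genes had smaller fold changes between the same months, and the difference between breeds was not called for any gene in the main fit. With all 8 libraries in 1 fit, 0 of 14536 genes had a fold change that differed between the breeds by edgeR's adjusted p (0%), while 492 did at an unadjusted p below 0.05 (3.38%) and DESeq2 called 100. The contrast within cashmere goats also gave 0 calls (0%; 398 genes at an unadjusted p below 0.05, 2.74%). In that fit the milk goat contrast gave 188 calls (1.29%), and the log2 fold changes of the 172 genes centred on 3.53 in milk goats and 0.73 in cashmere goats, where the median of all genes was 0.00. Of the 172, 171 were above 0 in cashmere goats, against 50.5% of all genes, and 102 were without overlap in that direction, against 17.5% of all genes. The 172 were chosen on their milk goat values, so the gap between the breeds is a description.

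CHAC1 had the smallest p for the difference between breeds among genes with a symbol other than LOC. Scaled over all 8 libraries, it had 88.7 and 219 CPM in months 6 and 9 of milk goats, against 6.43 and 4.92 CPM in months 3 and 12 of milk goats. In cashmere goats it had 116 and 159.8 CPM in months 6 and 9, against 96.2 and 108 CPM in months 3 and 12. The difference of the log2 fold changes was 4.32 ± 0.57 (edgeR adjusted p = 0.276). With month as a block over both breeds, a fit chosen after the data were seen, it was 4.21 (edgeR adjusted p = 0.0452), and the 1 other gene called there was LOC108633210, with a difference of -4.20. For CHAC1 the cashmere goat libraries of months 3 and 12 lay near those of months 6 and 9, and only the milk goat libraries of months 3 and 12 were low. KRT39, KRT36, TGM6 and CAPN12 followed, with differences of 3.73, 3.35, 3.25 and 2.56 and fold changes above 0 in both breeds. TCHH had 65464 CPM in month 12 of cashmere goats, above its 46118 and 48862 CPM in months 6 and 9 (difference of log2 fold changes 4.14 ± 1.26, adjusted p = 0.916).

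Differences below 0, where the cashmere goat fold change exceeded that of milk goats, were led by KRT4, a keratin of non-cornifying epithelia. KRT4 had 3.31 and 1.38 CPM in months 6 and 9 of milk goats, against 3.09 and 3.08 CPM in months 3 and 12 of milk goats. In cashmere goats it had 23.2 and 18.6 CPM in months 6 and 9, against 1.72 and 1.84 CPM in months 3 and 12 (difference -3.92 ± 0.60, edgeR adjusted p = 0.327). SOD3, MX1, TFPI2 and SPINK7 followed, with differences between -2.85 and -1.38 and adjusted p from 0.631 to 0.855.

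**Figure D5:**
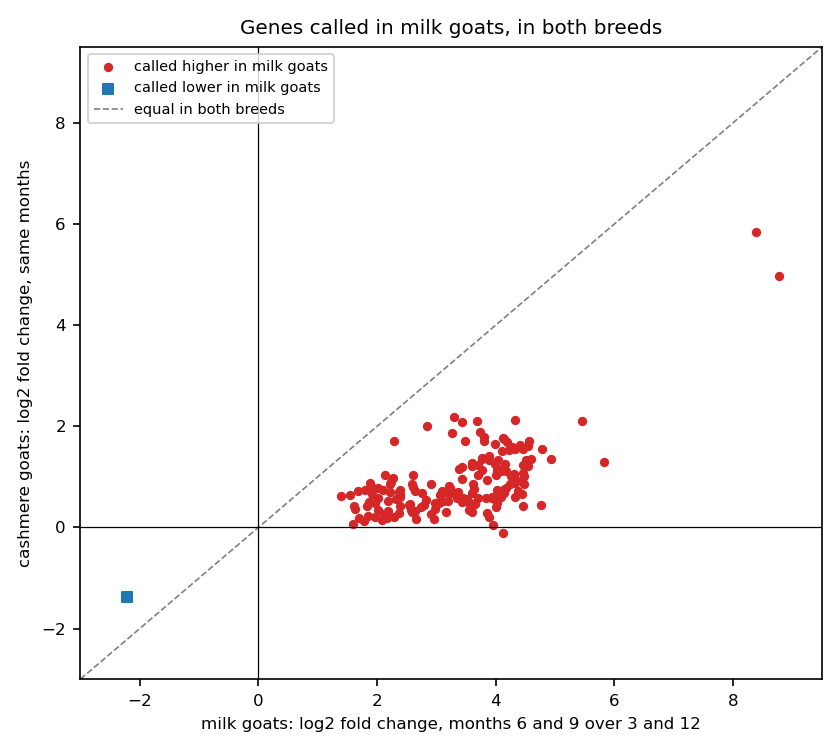
Log2 fold change for months 6 and 9 over months 3 and 12 in milk goats (horizontal) and in cashmere goats (vertical) for the genes called in milk goats, from 1 fit of all 8 libraries; the dashed line marks equal values. Of the 172 genes called higher in milk goats (red), 171 lie above 0 in cashmere goats, with a median of 0.73 there and 3.53 in milk goats.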

How the data were processed

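The authors deposited 2 tables of raw read counts per gene, without normalization, and 1 of FPKM, reads scaled to gene length and library size by the authors. Per the labels, polyadenylated RNA was made into directional libraries and sequenced paired-end. Bowtie2 is named in the submitters' processing notes; its role, its version and the genome build are not stated there, so no coordinates or sequences are printed. FPKM was used only for levels and an alternative fit.

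The count table of 18815 genes was tested with edgeR 4.0.16 in R 4.3.3: filterByExpr on the group, TMM factors, quasi-likelihood F test with 2 residual degrees of freedom, Benjamini-Hochberg adjustment and a threshold of 0.05. A standard error is the fold change divided by the root of its F statistic. The breed difference was tested over 8 libraries in 4 groups (4 residual degrees of freedom). The script was checked on simulated data with true replicates in each group, a check that cannot test the use of months as replicates. Alternatives were DESeq2 1.42.0, limma 3.58.1 on log2(FPKM + 1) and log2(FPKM + 0.1), other factors, filters, each library left out, the other count table and, for the breed difference, month as a block (2 residual degrees of freedom).

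The pairing of months, the gene lists, the rule for named genes and the tests were chosen with earlier results of these data known. The rule took the 12 genes with the largest fold change in each direction (at least 5 CPM, no overlap), filled by smallest p as values, and up to 4 called list members, otherwise 2 as values. Other genes were named after their values were seen. A few genes that the rule names are not reported here. Exact binomial 95% intervals and the limit of 3 reads cover counting error only, as reads lacking molecular identifiers may be copies of 1 molecule.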

Additional observations from a re-analysis of the deposited data

How the results depend on the processing

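Months pair libraries only across breeds; with month as a replicate block, chosen after seeing the data, 2 genes were called for the breed difference (665 at an unadjusted p below 0.05). Across genes, the breeds' differences correlated at r = 0.282 (month 6 minus 9) and 0.0996 (month 3 minus 12). The number of genes called, 173 (172 higher, 1 lower), was 271 with library totals (28 lower) and 468 without a filter (420 higher, 48 lower). DESeq2, fitted to the same 14385 genes as the main test, called 409 (380 higher, 29 lower). With limma at either pseudocount 8 were lower. The fit of all 8 libraries and the other count table gave 0 lower genes. Leaving out 1 library gave 0 (month 12) to 767 (month 6) calls, 0 to 589 higher and 0 to 178 lower. The breed difference, 0 calls, gave 41 without a filter, 100 with DESeq2 and 0 to 2 without 1 library. FCER1G and SDHD, negative in the main table, had 0.32 and 0.014 in the other table. The cause of these changes was not tested, except that leaving out a library leaves 1 sample in a group, which is assumed to vary like the others. Depth limits genes near 3 reads: a gene without reads may lie anywhere up to 0.220 to 0.270 CPM, depending on the library.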
